A study of Homo sapiens with 9 samples.

Results

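The 10 genes described here are 3 transcription factors of the melanocyte lineage (MITF, SOX10 and PAX3), the endothelin receptor gene EDNRB, and 6 genes of pigment synthesis and the melanosome (PMEL, MLANA, TYR, TYRP1, DCT and GPR143). They were taken by gene symbol from a table of 22605 features, in which each of the 10 had 1 row. The rule uses no measured value, but the set was put together with earlier results of these data known. Their transcripts were counted by poly-A RNA sequencing of A375, an established line of human melanoma with an activating BRAF mutation. The 3 groups were untreated A375 cells, A375 cells given Salvianolic Acid B (SalB, a phenolic acid from Salvia miltiorrhiza root) at 100 µM for 48 h, and A375 cells given SalB at 200 µM for 48 h. Each group held 3 libraries, which the design text calls biological replicates, and the labels give all 9 libraries the same batch value. No vehicle is named for the untreated cells, and a single cell line was used, so the groups share the line's genotype.

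Melanocytes descend from the neural crest. SOX10 and PAX3 act on the promoter of MITF, and MITF, a basic helix-loop-helix leucine zipper factor, acts on promoters of pigment genes. TYR encodes tyrosinase, the enzyme that starts melanin synthesis from tyrosine. TYRP1 and DCT encode related enzymes of the same pathway, PMEL the protein of the fibrils on which melanin is laid down, MLANA a melanosome protein used as a tumour antigen, and GPR143 a receptor of the melanosome membrane. EDNRB, on the cell surface, binds endothelins and serves melanoblast migration and survival. Melanomas vary in how much of this program they keep, and a state with low MITF and high AXL, known from drug-resistant melanoma, is one of those described for the disease.

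The short promoter stretches below are shown because they hold the letters through which MITF is known to act on pigment genes and through which cAMP signalling is known to act on MITF. They come from the RefSeq promoter table (GRCh38.p14), which has 12 entries for 8 of the 10 genes. SOX10 and PMEL are named only. The 250 bases before the start site of each entry were searched on both strands. For the pigment genes and EDNRB the capitals mark CATGTG or its reverse complement CACATG, the core of the M box, and for MITF they mark TGACGTCA, the cAMP response element. Each line reads 5′ to 3′ on the gene's own strand.
MITF, chr3:69936429-69936458, plus strand: gaaaaaaagcaTGACGTCAagccaggggga
TYR, chr11:89177759-89177788, plus strand: agaaaagtcagtCATGTGcttttcagagga
TYRP1, chr9:12693229-12693258, plus strand: ttggaagggaatCATGTGctgatcaagtcc
DCT, chr13:94479799-94479828, minus strand: tgcactttgggtCATGTGctaatgatgagg
GPR143, chrX:9765891-9765920, minus strand: agaggcccagggCACATGatgccgccccca
EDNRB, chr13:77919816-77919845, minus strand: gctgccgggtgtCACATGgtgcgtgataac

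Distances run to the start site of the promoter entry, which need not be the outer end of the gene. The capitals begin 152 bases before that start for MITF, 104 for TYR, 144 for TYRP1, 134 for DCT, 61 for GPR143 and 151 for EDNRB. A further match, not shown, began 12 bases before it for TYR, 11 for TYRP1, 215 for DCT and 33 for GPR143. Of the stretches shown, only that of DCT lies outside the gene coordinates given below, and the others lie inside them. Other entries of MITF, DCT and EDNRB, and those of PAX3 and MLANA, held no match. For TYR and TYRP1 the match shown is the one that holds the longer TCATGTG, and for DCT and GPR143, where both matches hold it, the choice followed no rule. The windows of MITF, TYRP1 and DCT touch no annotated exon, whereas those of TYR, GPR143 and EDNRB lie within exons of other annotated transcripts. CATGTG or its reverse complement stood in 5 of the 12 member entries and in 9.42% of all 35116 promoter entries. The longer TCATGTG (reverse complement CACATGA), which contains CATGTG, stood in 4 of the 12 and in 2.52% of all. The related E box CACGTG stood in 0 of the 12 and in 6.34% of all, and TGACGTCA in 1 of the 12 and in 1.65% of all. A match describes letters only. No measurement of binding or promoter activity was part of these data.

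Library totals were 29658753 to 30063195 counts in untreated cells, 29996059 to 30629685 at 100 µM and 27348621 to 28468350 at 200 µM. SalB 200 µM replicate 3 stood apart from its group: mitochondrially encoded mRNAs took 4.69% of its counts, against 1.85% and 1.81% in the other two libraries at 200 µM, 2.83% to 3.11% at 100 µM and 2.09% to 2.29% in untreated cells. Libraries also differed in how high GC-rich transcripts stood. The log2 gap between the 12.5% of genes richest and the 12.5% poorest in GC, relative to the untreated mean, was -0.16 to 0.18 in untreated cells, 0.71 to 0.98 at 100 µM, and 0.56, 1.02 and -0.29 in replicates 1, 2 and 3 at 200 µM. Where a call, a sign or the size of a value for these genes turned on replicate 3 or on the GC trend of the libraries, the value without it is given as well. The strand setting of the counting, not given in the sources used here, stays unknown, so a gene and an overlapping partner can share reads, and counts per gene do not separate isoforms such as those of MITF. In bulk RNA, fewer cells of a type and less RNA per cell cannot be told apart.

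Compared per length of transcript, the 3 lineage factors and EDNRB stood above all 6 pigment genes in untreated A375 cells. SOX10 had 91.9 ± 5.06 FPKM (counts per 1000000 TMM-scaled counts, CPM, divided by kilobases of exon; mean ± SD, n = 3), EDNRB 10.1 ± 0.499, MITF 3.98 ± 0.350 and PAX3 1.71 ± 0.0696. The median of 13874 tested genes of known length was 4.83 FPKM, which puts SOX10 at the 96.9th percentile, EDNRB at the 67.9th, MITF at the 45.8th and PAX3 at the 29.8th. The pigment genes followed with 0.254 FPKM for TYRP1, 0.161 for PMEL, 0.0819 for MLANA, 0.0642 for GPR143, 0.0303 for DCT and 0.0189 for TYR. TYRP1 was at the 10.0th percentile and DCT at the 0.764th. The order from SOX10 to PAX3 held without overlap between libraries, whereas the SDs of MLANA and GPR143, of GPR143 and DCT, and of DCT and TYR overlapped.

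Of the 10 genes, 8 had enough counts to be tested, and TYR and GPR143 did not. MLANA and DCT are near the limit of the filter and had more counts in treated than in untreated libraries. Genes were called at an adjusted p under 0.05 in edgeR's quasi-likelihood test with Benjamini-Hochberg adjustment over 13968 genes. At 100 µM against untreated cells, 3 of the 8 were called: SOX10 higher, MITF and EDNRB lower. In that comparison 37.1% of all genes tested were called (18.9% higher and 18.2% lower), so the share among the 8 is near that of any gene. At 200 µM against untreated cells, 4 of the 8 were called: SOX10, PAX3 and DCT higher, MITF lower, where 37.3% of all genes were called (19.8% higher and 17.5% lower). Between 200 µM and 100 µM, PAX3 and EDNRB were called, both higher at 200 µM, where 44.4% of all genes were called (22.4% higher and 21.9% lower). The counts carry no statement about these genes as a group, and the values of each gene follow. Both comparisons with untreated cells use the same 3 untreated libraries.

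**Figure D1:**
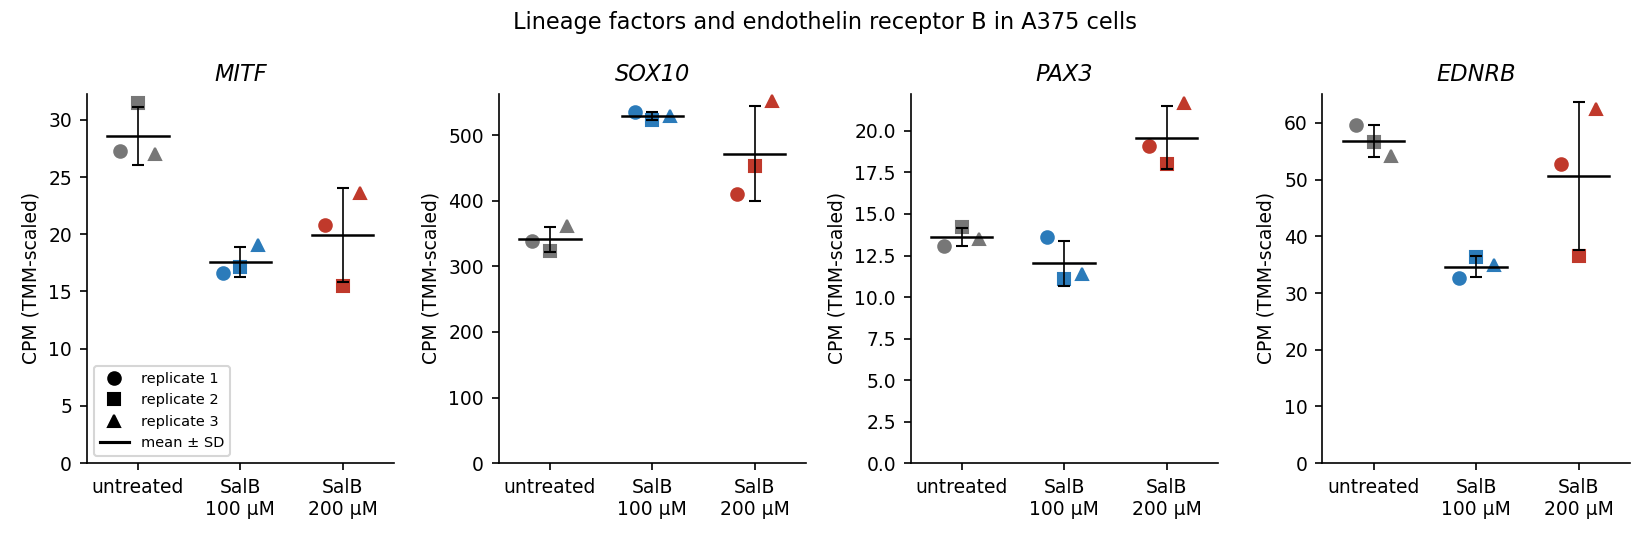
CPM of SOX10, EDNRB, MITF and PAX3 in each of the 9 libraries by dose, with points for libraries and bars for the mean ± SD of 3. MITF lies at 15.5 to 23.6 CPM in all 6 treated libraries and at 27.0 to 31.5 in untreated ones, SOX10 lies above its untreated libraries at both doses, EDNRB is low at 100 µM, and PAX3 is high at 200 µM.

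MITF (ENSG00000187098, GRCh38 chromosome 3, 69739435 to 69968337, plus strand), the factor that acts on pigment genes, fell at both doses. It had 27.3, 31.5 and 27.0 CPM in untreated replicates 1 to 3, 16.6, 17.1 and 19.1 CPM at 100 µM, and 20.8, 15.5 and 23.6 CPM at 200 µM. All 6 treated libraries lay below all untreated ones, and the 2 doses overlapped. Expressed as log2 fold change ± SE, the difference was -0.70 ± 0.15 at 100 µM (adjusted p = 0.0071, edgeR), which is 1.62-fold lower, and -0.52 ± 0.15 at 200 µM (adjusted p = 0.026, edgeR), which is 1.43-fold lower. Between 200 µM and 100 µM the difference was 0.18 (95% interval -0.17 to 0.53), which did not pass the test. With the GC trend removed the log2 fold changes were -0.49 and -0.44 and both calls stood. The call at 200 µM was lost, with adjusted p from 0.05 to 0.098, when untreated replicate 1, 2 or 3 or SalB 200 µM replicate 1 was left out, at log2 fold changes of -0.55, -0.44, -0.56 and -0.55, and with only the 2 groups compared in the fit (0.064). The call at 100 µM stood in each of the 9 fits that left out 1 library.

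SOX10 (ENSG00000100146, chromosome 22, 37970686 to 37987422, minus strand), which specifies neural crest and melanocytes and acts on the MITF promoter, rose while MITF fell. Its level was 339, 323 and 361 CPM in untreated cells, 535, 523 and 529 CPM at 100 µM, and 411, 453 and 552 CPM at 200 µM. Every treated library lay above every untreated one. SalB 200 µM replicate 3 held the highest value of all 9, and the other two libraries at 200 µM lay below all 3 at 100 µM. Relative to untreated cells the log2 change was 0.63 ± 0.11 at 100 µM (adjusted p = 0.0018, edgeR) and 0.47 ± 0.11 at 200 µM (adjusted p = 0.0075, edgeR), 1.55-fold and 1.38-fold higher.

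SOX10 transcripts have 63% GC, the highest of the 10 genes, and the GC gap was above the untreated range in 5 of the 6 treated libraries. The exception, SalB 200 µM replicate 3 (-0.29), held the highest SOX10 level. With each library's GC trend removed, the log2 fold change at 100 µM was 0.25 ± 0.22 (adjusted p = 0.39, edgeR) and at 200 µM 0.41 ± 0.22 (adjusted p = 0.15, edgeR), and both calls ended. With the trend removed and SalB 200 µM replicate 3 left out, a setting chosen after the data were seen, it was 0.26 ± 0.03 at 100 µM (adjusted p = 2.4e-05, edgeR) and 0.04 ± 0.04 at 200 µM (adjusted p = 0.36, edgeR). Between 200 µM and 100 µM the difference was -0.16 ± 0.11 (adjusted p = 0.23, edgeR), 0.16 with the GC trend removed, and -0.30 (adjusted p = 0.0022, edgeR) without SalB 200 µM replicate 3. It was also called with scaling by total counts (-0.26, adjusted p = 0.046, edgeR). Among all alternatives, 3 gained a call for this difference. With the GC trend removed and SalB 200 µM replicate 3 left out, the values above are lower at 200 µM than at 100 µM. The part of GC in the SOX10 result beyond these values was not tested. SOX10 shares 2.4% of its exon bases with POLR2F on the other strand, which had 73.1 to 94.1 CPM at 200 µM, 113 to 119 CPM at 100 µM and 111 to 143 CPM in untreated cells.

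PAX3 (ENSG00000135903, chromosome 2, 222199888 to 222298996, minus strand), a paired-box factor that acts on MITF together with SOX10, rose at the higher dose. It had 13.1, 14.2 and 13.5 CPM in untreated cells, 13.6, 11.1 and 11.4 CPM at 100 µM, and 19.1, 18.0 and 21.7 CPM at 200 µM. The 3 libraries at 200 µM lay above the other 6, and the libraries at 100 µM overlapped the untreated ones. The log2 fold change at 200 µM was 0.53 ± 0.12 against untreated cells (adjusted p = 0.0073, edgeR) and 0.71 ± 0.12 against 100 µM (adjusted p = 0.0013, edgeR), and both calls stood in all 9 fits that left out 1 library and with the GC trend removed (0.47 and 0.75). At 100 µM it was -0.18 (95% interval -0.44 to 0.09), not called. With the GC trend removed and SalB 200 µM replicate 3 left out, the value at 100 µM was -0.28 (adjusted p = 0.019, edgeR).

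EDNRB (ENSG00000136160, chromosome 13, 77895481 to 77975529, minus strand), the receptor through which endothelins act on melanoblasts, fell at 100 µM. It had 59.7, 56.6 and 54.1 CPM in untreated cells, 32.7, 36.4 and 34.9 CPM at 100 µM, and 52.8, 36.6 and 62.4 CPM at 200 µM. The libraries at 100 µM lay below all others, and those at 200 µM spread from just above them to the highest of the 9. Against untreated cells the log2 change was -0.71 ± 0.17 at 100 µM (adjusted p = 0.01, edgeR), 1.64-fold lower, and -0.37 (adjusted p = 0.005, edgeR) with the GC trend removed. At 200 µM it was -0.17 against untreated cells (95% interval -0.54 to 0.21), not called, and 0.02 without SalB 200 µM replicate 2. EDNRB was 0.54 ± 0.17 higher on the log2 scale at 200 µM than at 100 µM (adjusted p = 0.026, edgeR). That call was lost, with adjusted p from 0.06 to 0.088, without SalB 100 µM replicate 1, 2 or 3 or SalB 200 µM replicate 1, and the difference was 0.35 without SalB 200 µM replicate 3. With the GC trend removed it was 0.36 (adjusted p = 0.004, edgeR).

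**Figure D2:**
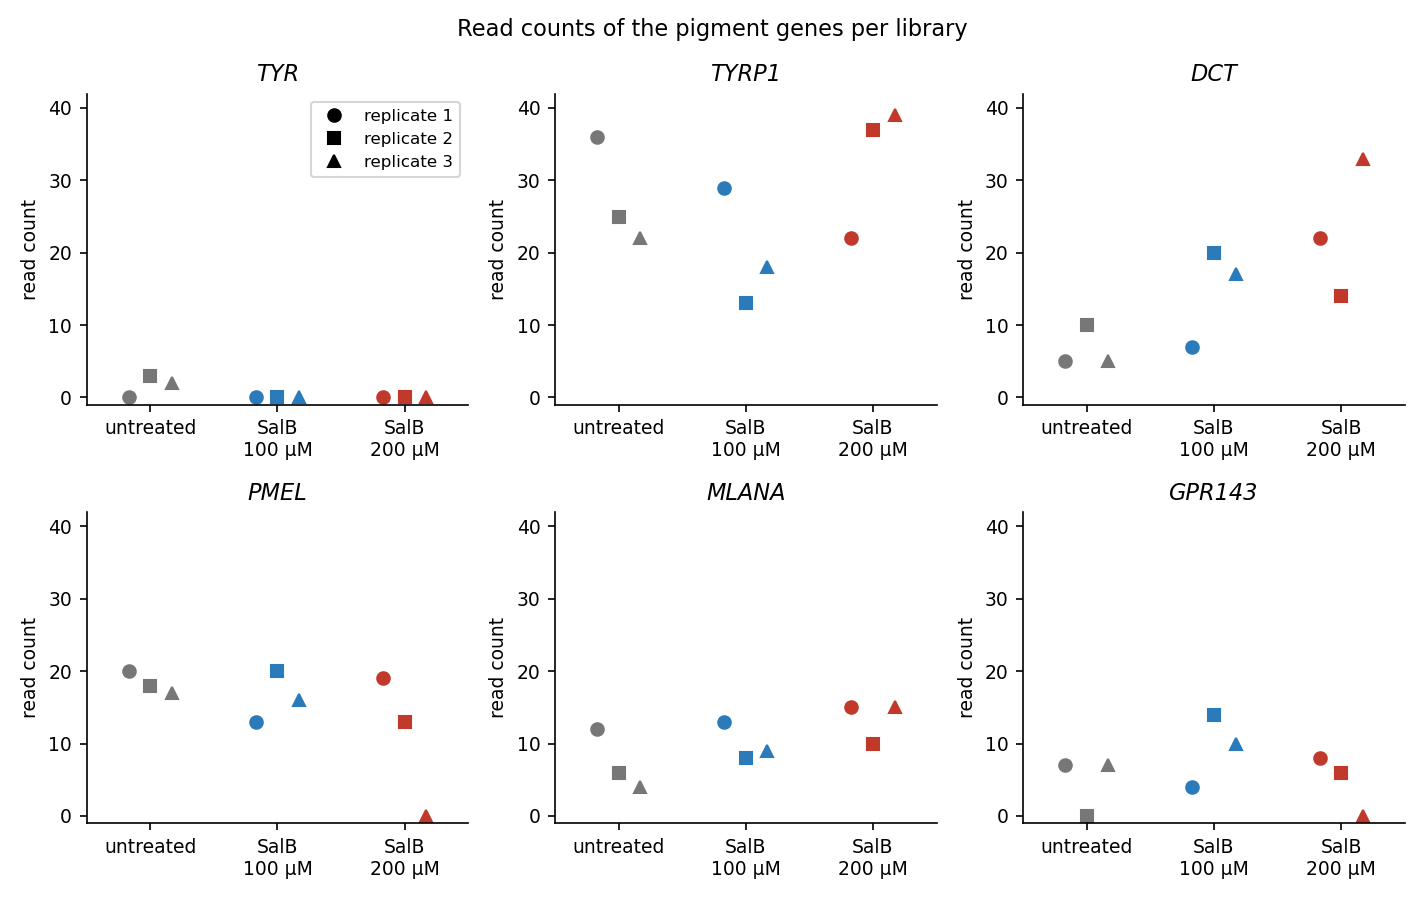
Raw read counts of the 6 pigment genes in each of the 9 libraries by dose. All values lie at or under 39 counts in libraries of at least 27348621 counts, TYR is at 0 in all 6 treated libraries, and PMEL is at 0 in 1 library at 200 µM.

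The 6 pigment genes together took 57 to 80 counts per library in untreated cells, 66 to 75 at 100 µM and 80 to 87 at 200 µM. As a level this is 1.92 to 2.77 CPM, 2.12 to 2.43 CPM and 2.85 to 3.46 CPM, with the libraries at 200 µM above all 6 others and those at 100 µM overlapping the untreated ones. A sum this small is ruled by its larger members, TYRP1 and PMEL in untreated cells and TYRP1 and DCT at 200 µM. Over the 3 libraries of a group, DCT had 69 counts at 200 µM against 20 in untreated cells. TYRP1 had 98 against 83, MLANA 40 against 22 and PMEL 32 against 55. Whether the libraries at 200 µM stand apart without DCT was not tested.

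TYR (ENSG00000077498, chromosome 11, 89177452 to 89295759, plus strand), the tyrosinase gene, had 0, 3 and 2 counts in untreated replicates 1 to 3 and 0 counts in all 6 treated libraries. A count of 0 over a group allows a level of up to 0.0335 CPM at 100 µM and 0.0362 CPM at 200 µM (3 counts over the group, counting error only). The untreated libraries held 5 counts in all, near that limit, and a difference in TYR was not tested.

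TYRP1 (ENSG00000107165, chromosome 9, 12685439 to 12710290, plus strand), which encodes a melanosomal enzyme related to tyrosinase, had 36, 25 and 22 counts in untreated cells, 29, 13 and 18 at 100 µM, and 22, 37 and 39 at 200 µM. The 3 groups overlapped. The log2 fold change was -0.55 at 100 µM (95% interval -1.42 to 0.31) and 0.36 at 200 µM (-0.48 to 1.2), and between 200 µM and 100 µM 0.91 ± 0.38 (adjusted p = 0.08, edgeR), none of them called. The last was called without SalB 100 µM replicate 1 (1.27, adjusted p = 0.044, edgeR) and at the threshold without SalB 200 µM replicate 1 (1.13, adjusted p = 0.05, edgeR). TYRP1 shares 2.73% of its exon bases with the antisense gene LURAP1L-AS1.

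DCT (ENSG00000080166, chromosome 13, 94436808 to 94479682, minus strand), encoding dopachrome tautomerase, was called higher at 200 µM. It had 5, 10 and 5 counts in untreated cells, 7, 20 and 17 at 100 µM, and 22, 14 and 33 at 200 µM. The 3 libraries at 200 µM lay above the 3 untreated ones, and those at 100 µM overlapped both. The log2 fold change at 200 µM was 1.90 ± 0.54 (adjusted p = 0.021, edgeR), 3.73-fold higher, at a level of 0.869 ± 0.411 CPM against 0.229 ± 0.1 CPM in untreated cells. No untreated library exceeded 10 counts, the minimum of the filter, so DCT entered the test through the treated libraries where it is high. It was also called with no filter on low counts (1.90, adjusted p = 0.026, edgeR) and was not tested with a filter of at least 1 CPM in 3 libraries. The call was lost without untreated replicate 1 (1.74, adjusted p = 0.08, edgeR) or untreated replicate 3 (1.72, adjusted p = 0.078, edgeR). At 100 µM the value was 1.04 (95% interval -0.21 to 2.29), and between the doses 0.86 (-0.25 to 1.97), neither called. Without SalB 200 µM replicate 3 the values were 1.5 at 200 µM against untreated cells, still called, and 0.43 between the doses.

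MLANA (ENSG00000120215, chromosome 9, 5890802 to 5910606, plus strand), the Melan-A gene, had 12, 6 and 4 counts in untreated cells, 13, 8 and 9 at 100 µM, and 15, 10 and 15 at 200 µM. The groups overlapped, and the log2 fold change was 0.35 at 100 µM (95% interval -0.71 to 1.42) and 0.97 at 200 µM (-0.07 to 2.01; adjusted p = 0.13, edgeR). These intervals reach past a doubling in either dose, so the depth leaves room for a change of that size.

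PMEL (ENSG00000185664, chromosome 12, 55954105 to 55973317, minus strand), the melanosome fibril gene, had 20, 18 and 17 counts in untreated cells, 13, 20 and 16 at 100 µM, and 19, 13 and 0 at 200 µM. The 0 stood in SalB 200 µM replicate 3. The log2 fold change was -0.25 at 100 µM (95% interval -1.81 to 1.31) and -0.69 at 200 µM (-2.31 to 0.94), or -0.11 without replicate 3. Between the doses it was -0.44, or 0.11 without replicate 3, and none of these was called. PMEL shares 2.28% of its exon bases with CDK2 on the other strand, a gene with 3084 to 4688 counts per library. How many of the PMEL counts are reads of CDK2 was not tested. GPR143 (ENSG00000101850, chromosome X, 9725346 to 9786297, minus strand), the ocular albinism receptor, had 7, 0 and 7 counts in untreated cells, 4, 14 and 10 at 100 µM, and 8, 6 and 0 at 200 µM. It was not tested, and its groups overlapped.

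**Figure D3:**
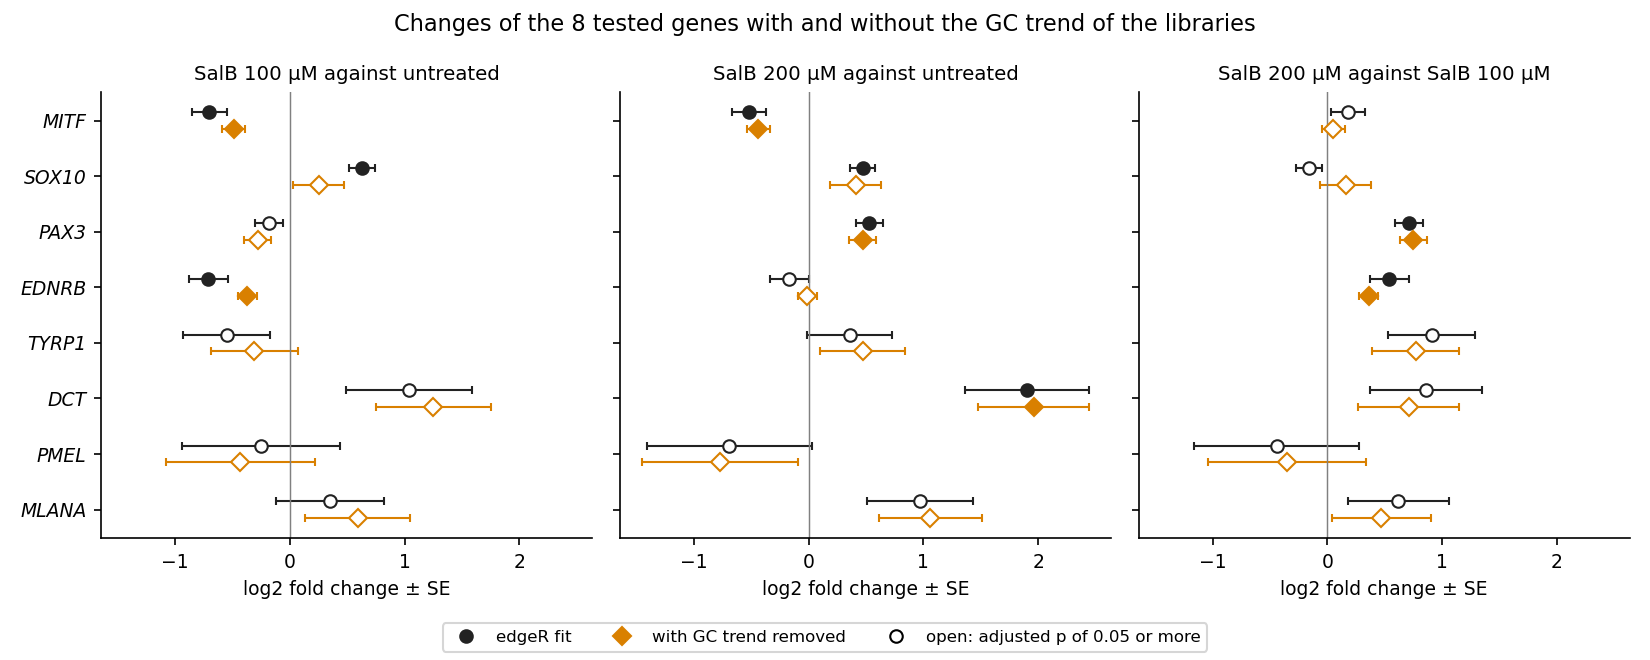
Log2 fold changes of the 8 tested genes in the 3 comparisons, from the edgeR fit over all 9 libraries (circles) and with the GC trend of the libraries removed (diamonds). Bars are ± SE and filled symbols are calls at an adjusted p under 0.05. In both fits MITF lies below 0 at both doses and SOX10 above it, with SOX10 not called once the GC trend is removed, and the bars of TYRP1, DCT, PMEL and MLANA are wider than those of the other 4 genes.

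The genes around MITF were described with lists, each set beside the share of all genes called (37.1% at 100 µM and 37.3% at 200 µM) and a median log2 fold change of all genes of -0.01 at 100 µM and 0.00 at 200 µM. Among 23 tested regulators and cofactors of MITF, 7 were higher and 5 lower at 100 µM (median 0.12), and 10 were higher and 3 lower at 200 µM (median 0.01). These are shares of 52.2% and 56.5%, against 37.1% and 37.3% of all genes. The count at 100 µM was 7 genes, 6 higher and 1 lower, without untreated replicate 1 or 3 or SalB 100 µM replicate 2. At 200 µM it was 8 without untreated replicate 1 or 2. Without SalB 200 µM replicate 3 the count was 18 at each dose. Over all genes, leaving out 1 library gave 3469 to 7943 calls at 100 µM and 3719 to 7614 at 200 µM. SMARCA4, the chromatin remodeller ATPase BRG1, had 214 ± 12 CPM at 100 µM against 102 ± 4.45 CPM in untreated cells (1.07 ± 0.08). CREBBP, a histone acetyltransferase, rose at 100 µM by 1.11 ± 0.22, and TFAP2A, a neural crest factor with 11.4% of its exons shared with the antisense gene TFAP2A-AS2, by 0.88 ± 0.13. HINT1, a repressor of MITF activity, fell by 0.56 ± 0.08 on the log2 scale. CREB1, the factor that binds cAMP response elements, fell by 0.57 ± 0.17, a value of -0.20 with the GC trend removed, and its call was lost without any 1 of the 6 untreated and 100 µM libraries (adjusted p from 0.057 to 0.098, edgeR).

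FOXD3, a neural crest factor that holds MITF down in chick and zebrafish embryos, moved in opposite directions. It had 18.0 ± 3.78 CPM at 200 µM, against 7.57 ± 1.42 CPM in untreated cells (1.25 ± 0.21, adjusted p = 0.0017, edgeR). At 100 µM it had 4.48 ± 0.767 CPM, a log2 fold change of -0.76 ± 0.21 that was lost without untreated replicate 1 or 3 or SalB 100 µM replicate 2 or 3 (adjusted p from 0.054 to 0.093, edgeR) and was -1.14 with the GC trend removed. TFEB, a relative of MITF, rose by 1.44 ± 0.29 at 200 µM, at 3.95 ± 0.817 against 1.45 ± 0.369 CPM in untreated cells. SOX9, a relative of SOX10, rose by 1.13 ± 0.29, a call lost without untreated replicate 1 or 2 (adjusted p of 0.052 and 0.058, edgeR). SOX5, which opposes SOX10 in mouse melanocytes, fell by 0.73 ± 0.17 on the log2 scale at 200 µM, and HINT1 by 0.32 ± 0.08, lost without untreated replicate 1 (0.053). CTNNB1, encoding beta-catenin, had -0.31 ± 0.10 at 200 µM, a call lost in 7 of 9 such fits (adjusted p from 0.054 to 0.097, edgeR) and with the GC trend removed (0.07).

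Among 13 tested receptors, ligands and kinases that act on melanocytes, 2 were higher and 5 lower at 100 µM (median -0.16), and 3 were higher and 2 lower at 200 µM (median 0.09). The shares called were 53.8% and 38.5%, the second near the 37.3% of all genes and the first above their 37.1%. Without untreated replicate 2 or SalB 100 µM replicate 1 or 2 the lower members at 100 µM were 2, and without untreated replicate 1 or 3 the count at 200 µM was 3. The highest counts were 8 at 100 µM without SalB 200 µM replicate 3 and 6 at 200 µM without SalB 200 µM replicate 2. Over all genes, leaving out 1 library gave 3469 to 7943 calls at 100 µM and 3719 to 7614 at 200 µM. ERBB3, the neuregulin receptor, had 357 ± 24.3 CPM at 100 µM against 214 ± 3.55 CPM in untreated cells (0.74 ± 0.07), and PRKACA, a catalytic subunit of protein kinase A, rose by 0.90 ± 0.10. The other catalytic subunit gene PRKACB fell by 1.02 ± 0.18 on the log2 scale (-0.47 with the GC trend removed), and FZD6, a Wnt receptor, by 0.71 ± 0.11 (-0.36). HGF, a growth factor for melanocytes, fell by 2.21 ± 0.56 on the log2 scale. The HGF call was lost without untreated replicate 2 or SalB 100 µM replicate 1 or 2 (adjusted p from 0.051 to 0.057, edgeR).

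KITLG, the ligand of the KIT receptor, had 19.7 ± 3.6 CPM at 200 µM against 7.86 ± 0.440 CPM in untreated cells (1.33 ± 0.15, adjusted p = 2e-04, edgeR). At 100 µM KITLG was called lower (-0.44 ± 0.15, adjusted p = 0.047, edgeR). WNT5A, a ligand tied to invasive melanoma, fell by 0.88 ± 0.22 on the log2 scale at 200 µM and FZD6 by 0.57 ± 0.11. NRG1, a ligand of the ERBB receptors, had 0.63 ± 0.22 and lost its call in 7 of the 9 fits without 1 library (adjusted p from 0.061 to 0.15, edgeR). MET, the HGF receptor, had 0.42 ± 0.12 at 200 µM and lost that call without untreated replicate 1 or 3. At 100 µM MET was called lower (-0.37 ± 0.12, adjusted p = 0.032, edgeR). MC1R, the melanocortin receptor, was not called: it had 20.1 ± 7.31 CPM at 200 µM and 19.9 ± 4.56 CPM at 100 µM, against 22.2 ± 0.603 CPM in untreated cells. ASIP, POMC, KIT, EDN3 and EDNRA were too low to be tested.

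**Figure D4:**
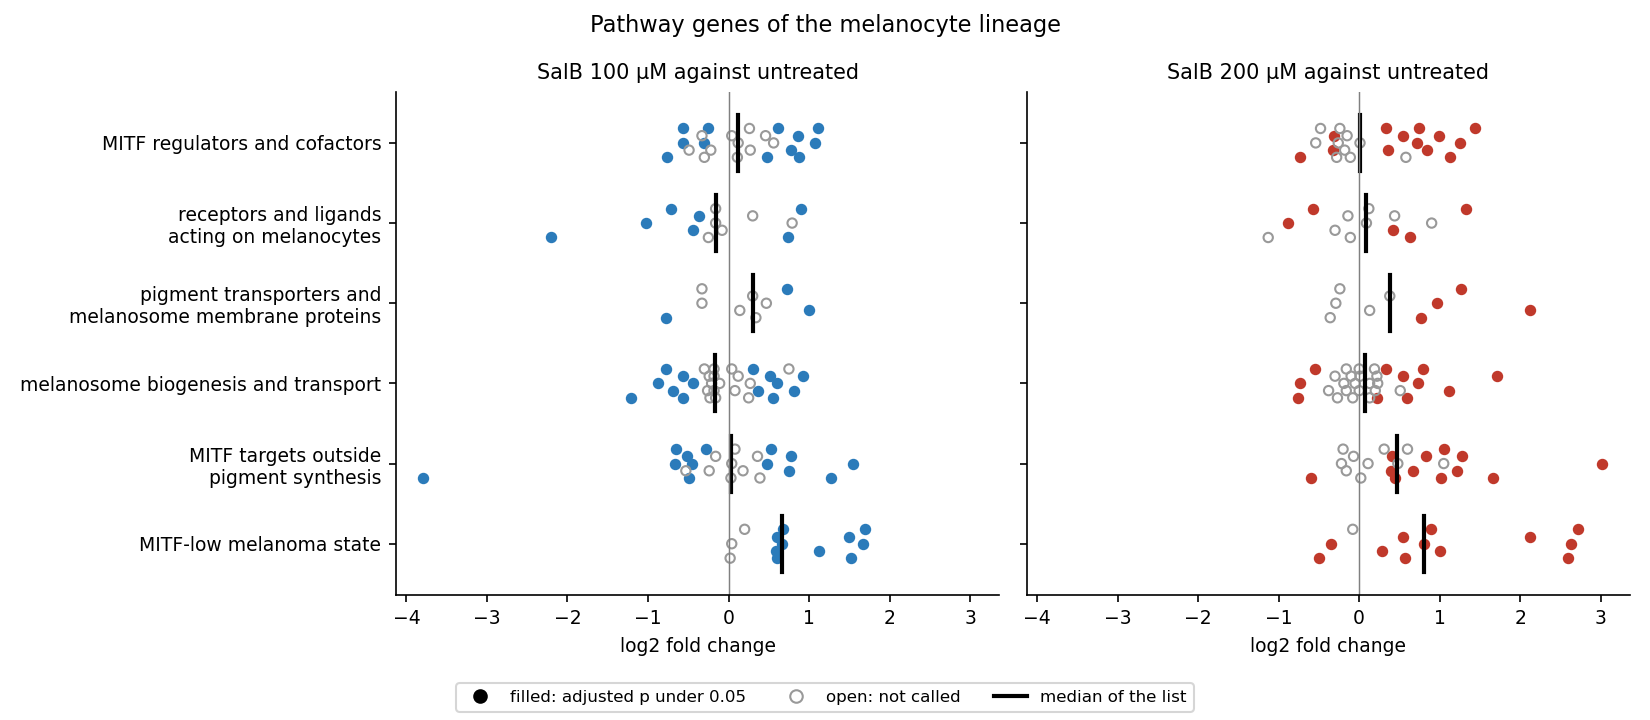
Log2 fold changes of the tested genes of 6 lists around MITF at 100 µM and at 200 µM against untreated cells, a point for each gene, filled where called, with the median as a line. The points of the list of the melanoma state with low MITF lie mostly above 0 at both doses, with medians of 0.67 and 0.81, and those of the other 5 lists lie on both sides. All 6 lists were chosen with earlier results of these data known.

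Of 13 pigment transporters and melanosome membrane proteins, 9 were tested, and OCA2, SLC45A2, SLC24A5 and TRPM1 were too low. At 100 µM 2 were higher and 1 lower (median 0.30), and at 200 µM 4 were higher and 0 lower (median 0.38). The shares called were 33.3% and 44.4%, or 3 and 4 of 9, against 37.1% and 37.3% of all genes. Without SalB 200 µM replicate 3 these counts were 5 and 3 at 100 µM and 6 and 1 at 200 µM. That fit also called more of all genes, 7943 at 100 µM and 7614 at 200 µM, against 5181 and 5211 with all 9 libraries. GPNMB, a melanosomal glycoprotein, had 579 ± 71.2 CPM at 200 µM against 133 ± 2.15 CPM in untreated cells (2.12 ± 0.09, adjusted p = 1.4e-06, edgeR). MFSD12, a lysosomal and melanosomal transporter with 10.7% of its exons shared with AC005786.3, rose by 1.27 ± 0.17 at 200 µM and by 0.73 ± 0.17 at 100 µM (0.34 with the GC trend removed). LAMP1, a lysosomal membrane protein, rose by 1.00 ± 0.07 at 100 µM, whereas CD63, a tetraspanin that sorts PMEL, fell by 0.78 ± 0.11 on the log2 scale. SLC3A2, an amino acid transporter chain, had 0.97 ± 0.27 at 200 µM. Its call was lost without any untreated library or without SalB 200 µM replicate 1 or 2 (adjusted p from 0.051 to 0.065, edgeR).

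All 30 genes of melanosome biogenesis and transport were tested. At 100 µM 7 were higher and 7 lower (median -0.17), and at 200 µM 8 were higher and 3 lower (median 0.07). The shares called were 46.7% at 100 µM, against 37.1% of all genes, and 36.7% at 200 µM, near the 37.3% of all genes. The count at 100 µM was 9 without untreated replicate 2 or SalB 100 µM replicate 2, and 22 with only the 2 groups compared in the fit. At 200 µM it was 5 without untreated replicate 1, 7 without untreated replicate 2 or 3, and 19 (13 higher and 6 lower) without SalB 200 µM replicate 3. Calls over all genes moved as well. At 100 µM they were 3469 without untreated replicate 2, against 5181 with all 9 libraries, and more than 5181 with only the 2 groups compared. At 200 µM they were 3719 without untreated replicate 1 and 7614 without SalB 200 µM replicate 3, against 5211. RAB38, a small GTPase that carries TYR and TYRP1 to melanosomes, had 17.9 ± 0.775 CPM at 100 µM against 41.3 ± 0.568 CPM in untreated cells (-1.21 ± 0.12, adjusted p = 9.6e-05, edgeR). BLOC1S6, a subunit of the BLOC-1 sorting complex, fell by 0.87 ± 0.17 on the log2 scale and STX12, a syntaxin, by 0.78 ± 0.15. AP3D1, the delta subunit of the AP-3 adaptor, rose by 0.93 ± 0.10 and AP1B1, of the AP-1 adaptor, by 0.81 ± 0.09 (0.51 with the GC trend removed). BLOC1S3, another BLOC-1 subunit, had 0.60 ± 0.16 at 100 µM, and that call was lost with the GC trend removed (0.23, adjusted p = 0.28, edgeR) and in 4 of the 9 fits without 1 library.

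LYST, which is mutated in Chediak-Higashi syndrome, a disorder with pale skin and giant lysosomes, had 85.1 ± 17.2 CPM at 200 µM against 25.9 ± 1.87 CPM in untreated cells (1.71 ± 0.14, adjusted p = 3.7e-05, edgeR). MYO5A, the myosin that moves melanosomes along actin, rose by 0.79 ± 0.11 and BLOC1S3 by 1.11 ± 0.16. BLOC1S1 (-0.76 ± 0.23, 29.8% of exons shared with BLOC1S1-RDH5), MREG (-0.73 ± 0.18), which encodes melanoregulin, and BLOC1S6 (-0.55 ± 0.17) were the 3 lower members at 200 µM. BLOC1S1 lost its call without any 1 of the untreated libraries or SalB 200 µM replicate 1, MREG without untreated replicate 1, and BLOC1S6 without untreated replicate 1 or 2 (adjusted p from 0.05 to 0.098, edgeR).

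Among 22 tested targets of MITF outside pigment synthesis, 6 were higher and 7 lower at 100 µM (median 0.03), and 11 were higher and 1 lower at 200 µM (median 0.47). The shares called were 59.1% and 54.5%, against 37.1% and 37.3% of all genes, of which 18.9% and 19.8% were higher and 18.2% and 17.5% lower. Leaving out 1 library gave 11 to 15 calls in the list at 100 µM and 9 to 15 at 200 µM. Over all genes it gave 3469 to 7943 and 3719 to 7614. MITF itself was lower at both doses. BCL2A1, a survival gene of the BCL2 family that NF-kB also regulates, had 1.5 ± 0.373 CPM at 100 µM against 20.8 ± 1.19 CPM in untreated cells (-3.79 ± 0.25, adjusted p = 1.3e-05, edgeR). At 200 µM it had 25.8 ± 7.58 CPM and was not called against untreated cells (0.31 ± 0.21, adjusted p = 0.28, edgeR). Its difference between 200 µM and 100 µM was 4.10 ± 0.25 (adjusted p = 3.6e-06, edgeR). At 100 µM ASAH1, acid ceramidase, fell by 0.67 ± 0.12 on the log2 scale (-0.40 with the GC trend removed) and CTSK, cathepsin K, by 0.65 ± 0.10. SEMA6A, a semaphorin, rose by 1.55 ± 0.22, TBX2, a T-box factor that represses senescence genes, by 1.27 ± 0.10, and TBC1D16, a Rab GTPase-activating protein, by 0.77 ± 0.14 (0.49). At 200 µM ASAH1 (0.02), CTSK (-0.20) and SEMA6A (-0.07) were not called, whereas TBX2 (1.01) and TBC1D16 (0.40) were called higher.

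At 200 µM CEACAM1, an adhesion molecule, had 7.66 ± 2 CPM against 0.937 ± 0.154 CPM in untreated cells (3.02 ± 0.28, adjusted p = 6.6e-05, edgeR). APOE, apolipoprotein E, rose by 1.66 ± 0.34 and ACP5, a phosphatase, by 1.28 ± 0.18. LIG1, a DNA ligase of replication, was the member that fell (-0.60 ± 0.18), a call lost without any 1 untreated library or SalB 200 µM replicate 1 (adjusted p from 0.054 to 0.072, edgeR). At 100 µM LIG1 was called higher (0.53 ± 0.17, adjusted p = 0.038, edgeR). BIRC7, GMPR, GYG2 and ABCB5 were too low to be tested.

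For the melanoma state with low MITF, 13 genes are described and all were tested. At 100 µM 10 of these were higher (median 0.67), and at 200 µM 10 were higher and 2 lower (median 0.81). The shares called were 76.9% and 92.3%, against 37.1% and 37.3% of all genes (18.9% and 19.8% higher). Between 200 µM and 100 µM 6 were higher and 5 lower (median 0.21), a share of 84.6% against 44.4% of all genes. The genes called higher were thus not the same set at similar size in both doses. Leaving out 1 library gave 10 calls each time at 100 µM and 8 to 12 at 200 µM. The list was chosen with earlier results of these data known. LOXL2, a matrix cross-linking enzyme, had 133 ± 3.38 CPM at 100 µM against 40.7 ± 1.22 CPM in untreated cells (1.70 ± 0.08), and TNC, the matrix protein tenascin C, rose by 1.67 ± 0.07. Their largest adjusted p was 2.6e-06 (edgeR). At 200 µM against untreated cells LOXL2 was called at 0.28 ± 0.08 and TNC was not called (-0.08 ± 0.07). Both were lower at 200 µM than at 100 µM (-1.43 ± 0.08 and -1.74 ± 0.08). NGFR, also a neural crest marker and described with those below, rose by 1.52 ± 0.13 at 100 µM and by 2.63 ± 0.13 at 200 µM. At 200 µM CCN1, a matricellular protein, had 161 ± 7.21 CPM against 24.4 ± 1.04 CPM (2.72 ± 0.09), and JUN, an AP-1 subunit, 72.4 ± 7.44 against 12 ± 1.63 CPM (2.59 ± 0.12). At 100 µM CCN1 was called higher as well (1.13 ± 0.08) and JUN was not called (0.20 ± 0.12). NUAK1, a kinase, had -0.50 ± 0.15 at 200 µM and lost that call without any 1 untreated library. NRP1, a semaphorin and VEGF receptor, had -0.35 ± 0.12 at 200 µM and lost that call in 7 of the 9 fits without 1 library (adjusted p from 0.066 to 0.17 for both, edgeR). At 100 µM NUAK1 (0.59 ± 0.14) and NRP1 (0.68 ± 0.12) were called higher.

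**Figure D5:**
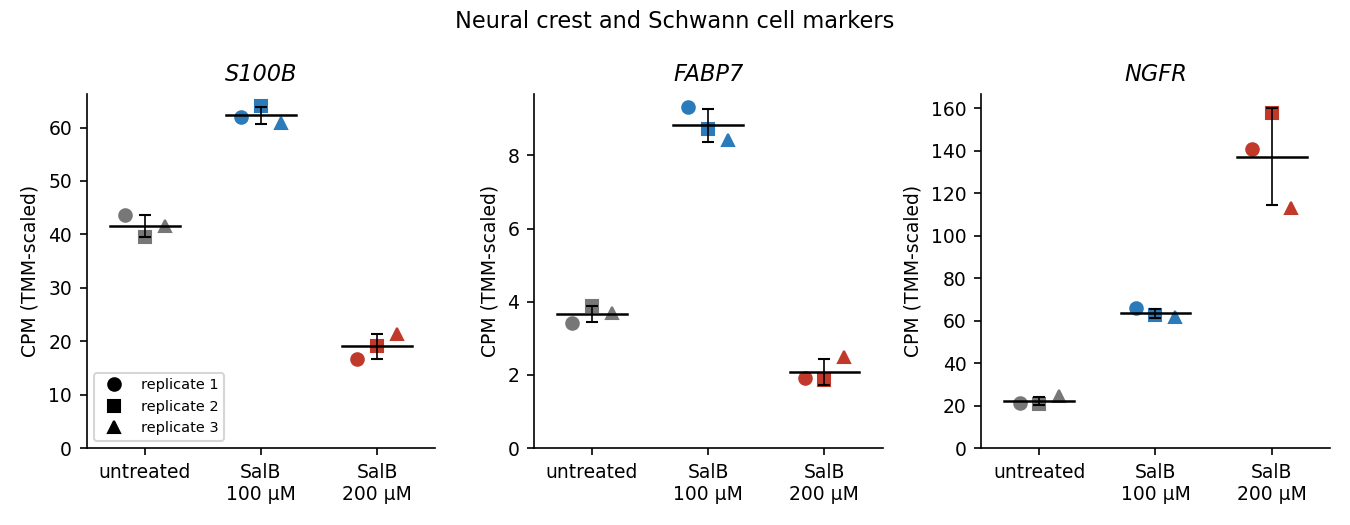
CPM of 3 neural crest and Schwann cell marker genes in each of the 9 libraries by dose, on linear axes from 0, with bars for the mean ± SD of 3. S100B and FABP7 are highest at 100 µM and lowest at 200 µM, and NGFR is highest at 200 µM.

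Neural crest and Schwann cells are further cells in which SOX10 acts, and 3 of their markers are described here. All 3 were higher at 100 µM (median 1.27), and at 200 µM 2 were lower and NGFR higher (median -0.81), where 37.1% and 37.3% of all genes were called. S100B, a calcium-binding protein used to stain melanoma, had 43.7, 39.5 and 41.6 CPM in untreated cells, 62.0, 64.0 and 60.8 CPM at 100 µM, and 16.7, 19.2 and 21.3 CPM at 200 µM. The 3 groups did not overlap. Its log2 fold change was 0.58 ± 0.10 at 100 µM (adjusted p = 0.0021, edgeR) and -1.13 ± 0.10 at 200 µM (adjusted p = 5.7e-05, edgeR). FABP7, a fatty acid binding protein, had 3.43, 3.89 and 3.68 CPM in untreated cells, 9.31, 8.73 and 8.43 CPM at 100 µM, and 1.92, 1.85 and 2.5 CPM at 200 µM, again with no overlap. Its log2 fold change was 1.27 ± 0.15 at 100 µM (adjusted p = 0.00026, edgeR) and -0.81 ± 0.15 at 200 µM (adjusted p = 0.0031, edgeR). NGFR, the nerve growth factor receptor of neural crest stem cells, with 22.3% of its exons shared with AC015656.1, had 63.5 ± 2.30 CPM at 100 µM and 137 ± 22.9 CPM at 200 µM, against 22.2 ± 1.97 CPM in untreated cells. All calls of these 3 genes stood with the GC trend removed and in each of the 9 fits without 1 library.

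Among markers of other cell types, the leukocyte genes CD3E and MS4A1 were at 0 in all 9 libraries and PTPRC had at most 3 counts. The 4 leukocyte genes summed to 0.477 to 1.32 CPM at 200 µM, 0.227 to 0.421 CPM at 100 µM and 0.173 to 0.338 CPM in untreated cells, most of it CD14. The 5 keratinocyte genes, with KRT5 at 0 in all libraries, summed to 6.75 to 8.40 CPM at 200 µM and 2.40 to 3.14 CPM at 100 µM, against 8.58 to 9.95 CPM in untreated cells. The 4 fibroblast genes summed to 12.1 to 15.6 CPM at 200 µM and 34.8 to 36.8 CPM at 100 µM, against 17.7 to 21.6 CPM in untreated cells. Most of this was LUM, with 15 to 16.1 CPM at 100 µM against 6.08 to 8.16 CPM in untreated cells, and PDGFRA, with 14.0 to 14.8 CPM against 9.84 to 11.9 CPM. The 3 endothelial genes summed to 3.18 to 3.31 CPM at 200 µM and 0.973 to 1.75 CPM at 100 µM, against 1.28 to 1.59 CPM in untreated cells. At 100 µM all 4 fibroblast genes were called higher and 1 of 2 tested keratinocyte genes lower. At 200 µM 1 of 2 tested endothelial genes and the leukocyte gene CD14 were called higher, and of the fibroblast genes 1 was higher and 1 lower. Of all genes, 18.9% were called higher and 18.2% lower at 100 µM, and 19.8% and 17.5% at 200 µM. The part of these markers in the results above was not tested.

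The genes whose profile was nearest to MITF over the 9 libraries were NUP35, FAM3C, LYPLA1, ZNF24 and FZD6. Likeness was the root mean square difference between log2 CPM profiles, each centred on its own mean. It was 0.06 to 0.07 for these 5, against a median of 0.48 over 13960 genes. Their log2 fold changes lay between -0.71 and -0.61 at 100 µM and between -0.57 and -0.45 at 200 µM. The genes nearest to SOX10 were ANKRD11, SIMC1, PIAS3, CRTC2 and ACTB, with a difference of 0.04 to 0.06 against a median of 0.44. PIAS3 also stands in the list of MITF regulators, as an inhibitor of MITF, and rose by 0.61 ± 0.11 at 100 µM and 0.55 ± 0.11 at 200 µM. These likenesses are a description over 9 libraries that differed in depth and GC trend, and the part of either in them was not tested.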

How the data were processed

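RNA of 9 A375 libraries was sequenced after poly-T capture, per the labels' protocols. The authors deposited raw read counts, as whole numbers, per gene and library. FastQC, HISAT2, featureCounts and DESeq2 with GRCh38 are named per the submitters' processing notes. Versions, roles and annotation release were not given in the sources used here. A further table of 100 features held none of the 10 genes and was not used. All 9 count columns were matched to samples by title.

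Of 22605 features, 20463 carried Ensembl identifiers; the other 2142 (1.25% to 1.41% of counts) were left out. Symbols were matched by identifier for 1000 of 1012 genes without one. Counts were fitted with edgeR 4.0.16 in R 4.3.3: filterByExpr (minimum count 10, minimum total 15), TMM scaling, a robust quasi-likelihood model of group over all 9 libraries (6 residual degrees of freedom), and Benjamini-Hochberg adjustment over 13968 genes. SE is the absolute log2 fold change over the root of F. CPM is TMM-scaled, and FPKM divides it by exon length from GENCODE v29. GC removal subtracts each library's lowess trend (span 0.3) of log2 CPM on gene GC. The fitting code was checked on simulated counts. An exact permutation test of 3 against 3 cannot go below 0.1.

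Within groups, libraries differed beyond counting noise (chi-square per degree of freedom 7.22 to 148), so none was counted as a copy. The 10 genes, the lists and the marker genes were chosen with earlier results of these data known. The text names all 10 genes and, for every list, called genes ranking among its 3 strongest increases or 3 strongest decreases against untreated cells, together with the 5 nearest profiles to MITF and to SOX10. A further 3 genes, 1 first placed in the list of the melanoma state with low MITF and 2 among the neural crest markers, are not reported here. The reason used no measured value, they are in no count, median or share of those lists, and the other lists are whole. STX12 was listed under its older name STX13. Named beyond this rule, after their values were seen, were MC1R, and genes listed as not tested. Alternatives were other scaling, filters, DESeq2 1.42.0, GC removal, a replicate block, only the 2 groups compared in the fit, and leaving out each library.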

Additional observations from a re-analysis of the deposited data

How the results depend on the processing

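Of the log2 fold changes of the tested genes under all alternatives, 442 kept their direction and their side of the threshold, 17 lost a call, 6 gained one and 5 changed sign. Those that changed sign were EDNRB at 200 µM against untreated cells without SalB 200 µM replicate 2 (0.02), SOX10 at 200 µM against 100 µM with the GC trend removed (0.16, and 0.11 with the replicate block as well), and PMEL at 200 µM against 100 µM without SalB 200 µM replicate 3 (0.11, and 0.18 with the GC trend removed as well). Leaving out 1 library in turn gave -0.33 to 0.02 for that EDNRB value and -1.15 to 0.11 for that PMEL value. The cause was not tested. Leaving out 1 library gave 3 calls among the 10 genes at 100 µM each time, 2 to 4 at 200 µM, and 1 to 3 between the doses; with only the 2 groups compared in the fit the last was 1. Over all genes, leaving out 1 library gave 3469 to 7943 calls at 100 µM, 3719 to 7614 at 200 µM and 4813 to 7668 between the doses. Each highest count came without SalB 200 µM replicate 3, and the lowest came without untreated replicate 2, untreated replicate 1 and SalB 100 µM replicate 2 in that order of comparisons. With only the 2 groups compared in the fit, 8417 genes were called at 100 µM, and with the GC trend removed and SalB 200 µM replicate 3 left out, an alternative chosen after the data were seen, 7964 at 200 µM.

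Replicate numbers did not pair the libraries: deviations of same-numbered libraries correlated between -0.16 and 0.03. The replicate block gave 4264 calls over all genes at 100 µM, 4369 at 200 µM and 5404 between the doses, with 3, 4 and 2 among the 10 genes. DESeq2 gave 5855, 5861 and 6753, and again 3, 4 and 2.

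Of 67 calls of named list and marker genes, 51 stood in all 9 fits that left out 1 library. Calls given for the same genes at the other dose or between the doses were not all among the 67. With a filter of at least 1 CPM in 3 libraries PMEL, MLANA and DCT had no value. Depth limits the pigment genes, which had at most 39 counts in a library.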

Other observations

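PMEL was at 0 in SalB 200 µM replicate 3 and had at least 13 counts in each of the other 8 libraries. Among genes with at least 10 counts in each of the other 8 libraries and a mean of at most 30, 5 of 330 were at 0 in that library, against 0 to 2 in each of the other libraries (of 294 to 313 genes). GPR143 was at 0 in that library and in untreated replicate 2. The 6 pigment genes summed to 0.146 to 0.184 counts per MITF count at 200 µM and 0.119 to 0.143 at 100 µM, against 0.0678 to 0.102 in untreated cells, with no overlap between either dose and the untreated libraries. At 100 µM the summed pigment counts, 66 to 75, lay within the 57 to 80 of untreated cells, whereas MITF had 517 to 590 counts against 788 to 914. DCT is part of the sum, with 20 counts over the untreated group, 44 at 100 µM and 69 at 200 µM. No test was made of this ratio, with or without DCT, and it was looked at after the values were seen.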
